A study of Mus musculus with 6 samples.

Results

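Atp9a and 8 related genes of the phospholipid flippases were followed in single mouse oocytes, 9 genes of the 25239 in the count table. They were taken by name: Atp9a because its ratio of phthalate to water was high in these same libraries, and the other genes because they encode proteins of the same family or the subunit they bind. The 6 libraries each held the polyadenylated RNA of a germinal vesicle oocyte, the stage before meiosis resumes, when the large nucleus is still intact. The oocytes came from female CD-1 mice, an outbred stock, 4 to 6 weeks old.

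In the water group (3 libraries) the cumulus-oocyte complexes, each an oocyte within its follicle cells, were microinjected with water. In the phthalate group (3 libraries) they were injected with a mixture of phthalate metabolites, the products the body makes from the plasticizers called phthalates. The labels give neither the dose nor the members of the mixture. Both groups were then cultured in maturation medium with serum, follicle-stimulating hormone and pyruvate. The question of the design is what the injected mixture does to the transcripts of the oocyte. The titles number the libraries 1 to 3 but name no animal or culture, and by its wording the protocol may describe a single oocyte for each group. Libraries are called oocytes here after their titles. If those of a group came from 1 oocyte, the spread between them would be technical. Each group is therefore treated as 1 sample, no difference was tested, and the intervals given cover counting error only.

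Membranes keep phosphatidylserine and phosphatidylethanolamine mostly on the leaflet that faces the cytosol. Flippases, the P4 class of P-type ATPases, use ATP to move phospholipids toward that leaflet. Most of them leave the endoplasmic reticulum only when bound to a CDC50 protein, of which Tmem30a encodes the widespread form (CDC50A). ATP9A and ATP9B are the exceptions that work without a CDC50 partner, and ATP9A acts on endosomes in the recycling of membrane proteins. Oocytes, like other cells, take up and recycle membrane through endosomes, where several flippases reside.

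Libraries held 252267 to 300917 gene counts each, with a sum of 854185 for water and 822225 for phthalate. Between 68.0% and 71.1% of the counts from 1 to 20 in a library were even numbers, so that a count of 2 may be a single read pair. The chi-square per degree of freedom between 2 libraries, on read pairs over genes, was 1.15 to 2.34 within a group and 1.43 to 1.90 between groups. Water oocytes 2 and 3 were the closest pair (1.15, over 4827 degrees of freedom), and phthalate oocytes 1 and 3 the farthest apart (2.34). The 12 oocyte markers, among them Gdf9, Bmp15 and Zp3, all had counts and took 2.75% of the water counts and 2.57% of the phthalate counts. Of 21 cumulus and granulosa markers 10 had a count, and their summed level was 236 to 375 CPM (counts scaled to a library total of 1000000) in water oocytes and 295 to 377 CPM in phthalate oocytes. Most of those counts belonged to Esr2 and Nr5a2, whose ratios had opposite signs. Esr2, an estrogen receptor gene, had 62, 54 and 54 counts after water and 76, 84 and 71 after phthalate, all phthalate levels being above the water levels (log2 ratio of the sums 0.51, interval 0.22 to 0.81). Nr5a2, a nuclear receptor gene, had 32, 23 and 9 counts against 16, 15 and 8, with overlap (-0.64, -1.26 to -0.05). The part of such RNA in the flippase values was not tested. The other 19 markers together had 7, 0 and 4 counts in water oocytes 1, 2 and 3 against 3, 9 and 2 after phthalate injection, with the defining markers Foxl2 and Amh at 0, Fshr at 3 and Cyp19a1 at 6 in all.

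The counts of the flippase genes were unevenly spread. Together the 9 genes had 313 counts, or 0.0187% of all gene counts, and 2 genes held most of them. Atp9a had 126 counts and Atp11a 103. Per length of exon, and over all 6 libraries, Atp9a lay at percentile 73.6 and Atp11a at 57.5 of the 12543 genes with a count and a length. By group, these were 62.9 and 63.0 in water, 79.7 and 49.5 in phthalate, and the choice of Atp9a for its ratio enters its places. Atp8a1 had 42 counts, Atp8a2 32 and Atp11b 6. Atp9b and Tmem30a had 2 counts each, and Atp8b1 and Atp8b2 had none. Only Atp9a and Atp11a passed the filter on low counts (edgeR's filterByExpr), which 4644 genes passed.

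**Figure D1:**
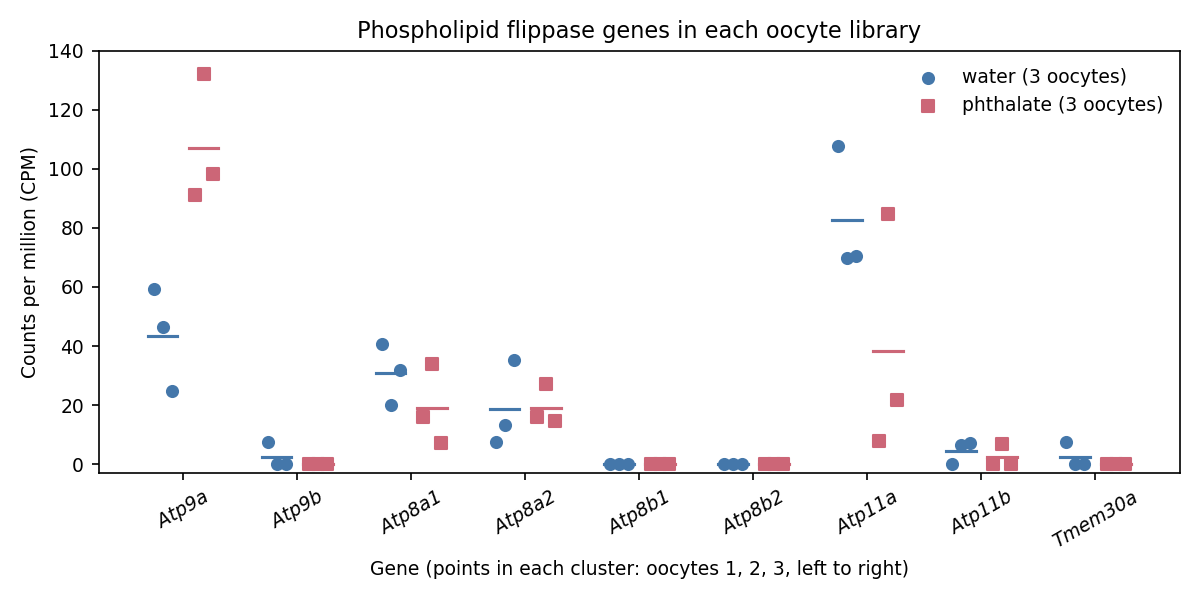
Level of each of the 9 flippase genes in CPM, with water oocytes as circles, phthalate oocytes as squares and the mean of each group as a line. Atp9a is the only gene whose 3 phthalate points (91.2 to 132 CPM) all lie above its water points (24.7 to 59.4 CPM), while for Atp11a phthalate oocyte 2 lies among the water oocytes.

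Atp9a (RefSeq gene 11981, chromosome 2, 168634438 to 168742370, minus strand, GRCm38.p6) encodes an endosomal flippase. Water oocytes 1, 2 and 3 had 16, 14 and 7 counts of it, whereas phthalate oocytes 1, 2 and 3 had 23, 39 and 27. As levels, these were 59.4, 46.5 and 24.7 CPM against 91.2, 132 and 98.2 CPM. Every phthalate oocyte was above every water oocyte. The water oocytes differed among themselves by 2.41-fold from lowest to highest, and the phthalate oocytes by 1.45-fold.

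In the sums of each group, Atp9a had 37 counts in water and 89 in phthalate, a 2.53-fold ratio (95% interval 1.70 to 3.81) or 1.34 on the log2 scale (0.77 to 1.93). On read pairs, taken as counts divided by 2 and rounded up, the sums were 19 and 46 and the log2 ratio 1.35 (0.55 to 2.20). The gene was picked for this ratio, so these values describe it and support nothing. Of all 4644 genes, 1.14% were at least 2-fold higher in phthalate (1.68% of the 2556 whose mean count was 10 to 30), and the 3 phthalate libraries lay above the 3 water libraries in 4.52%. Atp9a stood at rank 14 from the top of the 4644 ratios, and at rank 2 of 2784 when a mean count of 20 or more was asked for. By the RefSeq gene table Atp9a is overlapped by the microRNA gene Mir7004, which had 0 counts.

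Atp11a (RefSeq gene 50770, chromosome 8, 12757016 to 12868728, plus strand) encodes a flippase of the plasma membrane for phosphatidylserine and phosphatidylethanolamine. The gene went the other way from Atp9a in 2 of the 3 phthalate oocytes. Its 29, 21 and 20 counts in water oocytes 1, 2 and 3 came to 108, 69.8 and 70.5 CPM. In phthalate oocytes 1, 2 and 3 it had 2, 25 and 6 counts, or 7.93, 84.7 and 21.8 CPM. Phthalate oocytes 1 and 3 were below all water oocytes, and phthalate oocyte 2 was above water oocytes 2 and 3, so the groups overlapped.

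The summed counts of Atp11a were 70 in water and 33 in phthalate, a log2 ratio of -1.01 (95% interval -1.66 to -0.40). The point estimate lay just past the 2-fold line, at rank 69 from the bottom. Genes at least 2-fold lower in phthalate made up 1.66% of the 4644, and 2.39% of those 2556 of similar count. Without phthalate oocyte 2 the log2 ratio was -2.39, without phthalate oocyte 1 it was -0.55, without phthalate oocyte 3 -0.76, and without water oocyte 1 -0.81. Within the phthalate group the highest level was 10.7 times the lowest. Of the 2556 genes of similar count, 24 (0.939%) had a wider span there, and the median span was 1.89-fold. Phthalate oocyte 2 was also the one with 9 counts of the 19 rarer follicle cell markers, and the part of follicle cell RNA in the value was not tested. The long non-coding RNA gene Gm15350, on the opposite strand, shares 199 bases of exon with Atp11a in GENCODE M21 and had 0 counts.

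**Figure D2:**
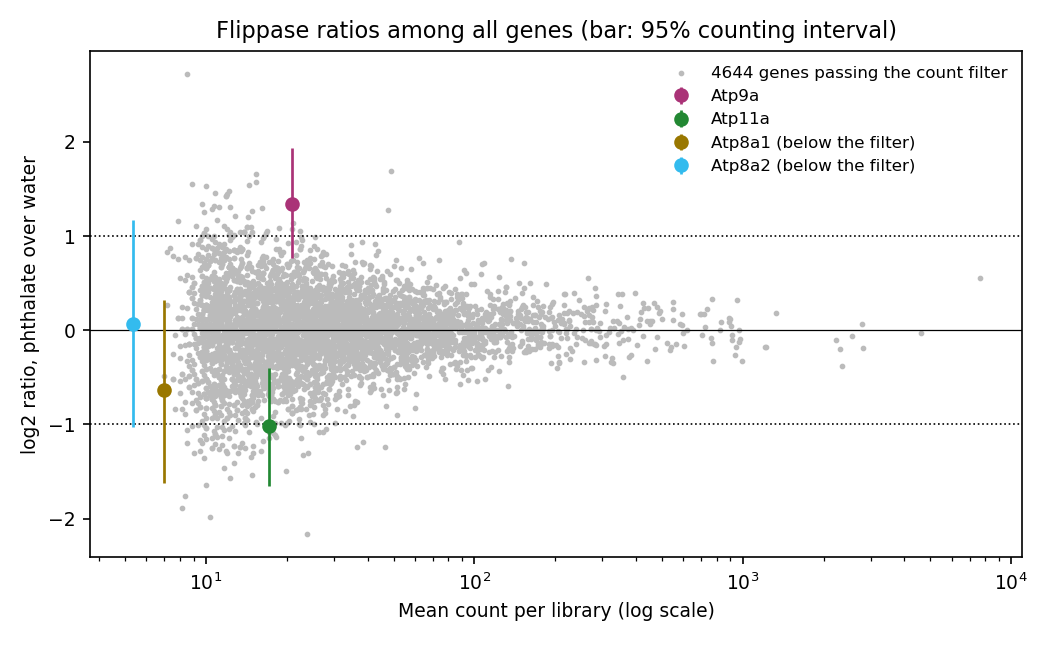
Log2 ratio of phthalate over water against mean count per library (log axis) for the 4644 genes that passed the filter (grey), with 4 flippase genes and their 95% counting intervals. Atp9a (1.34) and Atp11a (-1.01) lie past opposite dotted lines at 2-fold, and the intervals of Atp8a1 and Atp8a2, both below the filter, include 0.

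Of the 9 genes, 2 were thus past 2-fold, 1 in each direction, against 2.8% of all 4644 genes, and 7 did not pass the filter. The groups did not overlap for 1 of the 9, Atp9a, against 10% of all genes tested (4.52% with phthalate above and 5.49% with phthalate below). Atp9a was chosen on that contrast, and nothing is read from the 2 counts.

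Atp8a1 (chromosome 5, 67618139 to 67847484, minus strand) encodes a flippase of recycling endosomes. Its counts were 11, 6 and 9 after water and 4, 10 and 2 after phthalate. Phthalate oocytes 1 and 3 were again the low ones (15.9 and 7.27 CPM, against 19.9 to 40.8 CPM in water), and phthalate oocyte 2 (33.9 CPM) lay within the water range. The sums of 26 and 16 gave a log2 ratio of -0.63 (95% interval -1.63 to 0.32), which includes 0, so this depth could not show a difference.

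Atp8a2 (chromosome 14, 59647531 to 60086914, minus strand) encodes a close relative of ATP8A1 that is best known from neurons and photoreceptors. Counts were 2, 4 and 10 after water and 4, 8 and 4 after phthalate, with water oocytes at both ends of the range (7.42 and 35.2 CPM). Both groups summed to 16 counts, for a log2 ratio of 0.07 (-1.02 to 1.17). Leaving out 1 oocyte moved it from -0.30 to 0.91, so the counts fix no direction.

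Atp11b, whose product works on recycling endosomes, had 2 counts each in water oocytes 2 and 3 and in phthalate oocyte 2, and none in the other 3 libraries. The log2 ratio from 4 and 2 counts was -0.93, with an interval from -4.40 to 1.87 that spans both directions. Atp9b, which encodes the Golgi relative of ATP9A, had 2 counts in water oocyte 1 and none elsewhere. Atp8b1, known for its role in the bile canaliculus of the liver, and Atp8b2, the gene of a phosphatidylcholine flippase, had 0 counts in all 6 libraries. A count of 0 allows up to 3 counts, or 3.51 CPM in the water group and 3.65 CPM in the phthalate group. The Poisson intervals in the plot of levels per kb are two-sided and reach 3.69 counts for a count of 0. These genes were not detectable at this depth, as were 49.3% of all genes in the table.

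Tmem30a (chromosome 9, 79768941 to 79793430, minus strand), the gene of the widespread CDC50 partner, was all but missing from the counts. It had 2 counts in water oocyte 1 and none in the other 5 libraries. The 6 genes of catalytic subunits that need such a partner (Atp8a1, Atp8a2, Atp8b1, Atp8b2, Atp11a and Atp11b) had 183 counts in the same libraries. No fold is given for Tmem30a, because both groups were under 3 counts. The gene Cox7a2, with 509 counts, overlaps 2482 bases of Tmem30a on the same strand in the RefSeq table, while the exons of the 2 genes share 0 bases in GENCODE M21. The annotation behind the counts and its treatment of overlapping genes are not given in the sources used here, and their part in the low count was not tested.

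The other CDC50 genes had few counts as well. Tmem30b had 2, 0 and 4 counts after water and 0, 4 and 2 after phthalate, 6 in each group. Tmem30c, whose product is known from the testis, had 0.

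To compare genes with each other, levels were divided by the exon length of each gene, the bases covered by any exon in GENCODE M21. In water, Atp9a and Atp11a stood side by side, at 7.32 CPM per kb (95% Poisson interval 5.15 to 10.1) and 7.35 CPM per kb (5.73 to 9.29). In phthalate, Atp9a was at 18.3 CPM per kb (14.7 to 22.5) and Atp11a at 3.60 CPM per kb (2.48 to 5.06). Atp9a was picked for its ratio, so its place above Atp11a in phthalate follows in part from that choice.

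Below these 2 genes came Atp8a1, at 2.13 CPM per kb (1.39 to 3.12) in water and 1.36 CPM per kb (0.78 to 2.21) in phthalate. Atp8a2 followed at 1.22 CPM per kb (0.69 to 1.97) and 1.26 CPM per kb (0.72 to 2.05). The intervals of these neighbours overlapped in both groups, so their order is not set. Atp11b was at 0.51 and 0.27 CPM per kb, and Tmem30a at 0.41 CPM per kb in water.

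**Figure D3:**
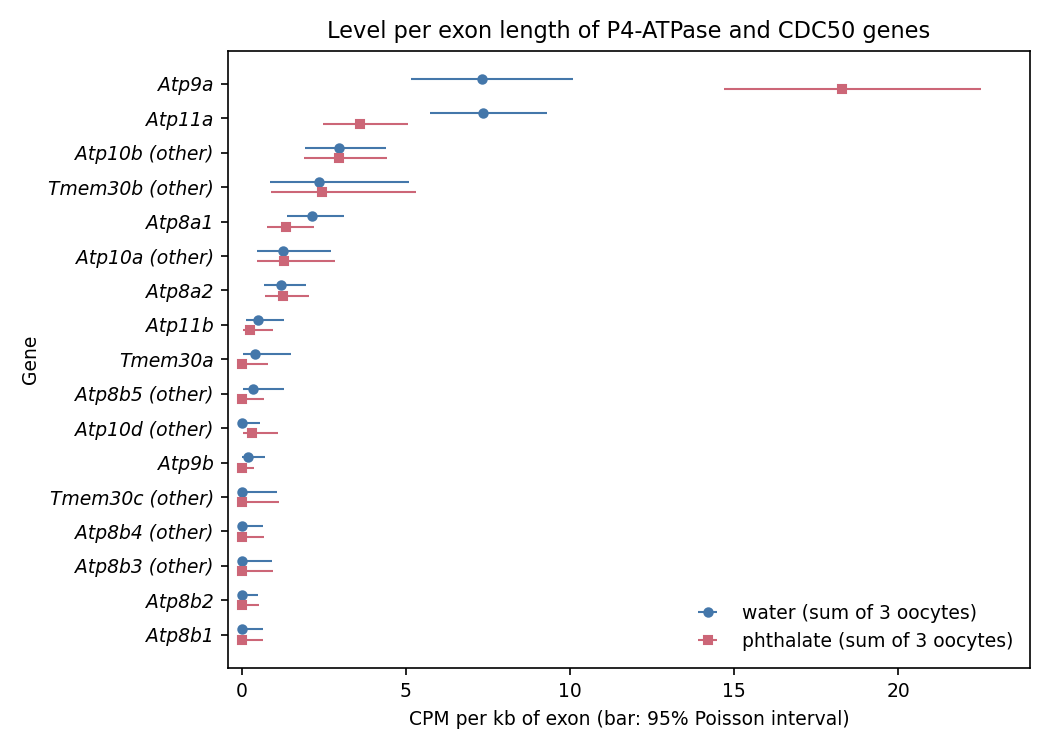
Level per kb of exon for the 9 genes and 8 other P4-ATPase and CDC50 genes (marked other), from the summed counts of 3 water oocytes (circles) and 3 phthalate oocytes (squares), with 95% Poisson intervals. Atp9a and Atp11a coincide in water near 7.3 CPM per kb and stand apart in phthalate, at 18.3 and 3.60 CPM per kb.

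The share of each gene in the flippase counts of a library was taken from the same counts, and is no separate evidence. Atp9a made up 25.8%, 29.8% and 14.6% of the 9 genes' counts in water oocytes 1, 2 and 3, from totals of 62, 47 and 48 counts. In the phthalate oocytes it made up 69.7%, 46.4% and 69.2%, from 33, 84 and 39 counts. The exact binomial interval was 17.2% to 31.0% for the water sum (23.6%) and 48.9% to 64.9% for the phthalate sum (57.1%). Atp11a made up 44.6% of the water sum (36.7% to 52.7%) and 21.2% of the phthalate sum (15% to 28.4%). For every count of Atp9a there were 1.81, 1.5 and 2.86 counts of Atp11a after water, and 0.0870, 0.641 and 0.222 after phthalate. In these ratios the phthalate oocytes lay below the water oocytes in all 3 cases, phthalate oocyte 2 included. Atp9a, picked for its ratio, enters both measures.

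**Figure D4:**
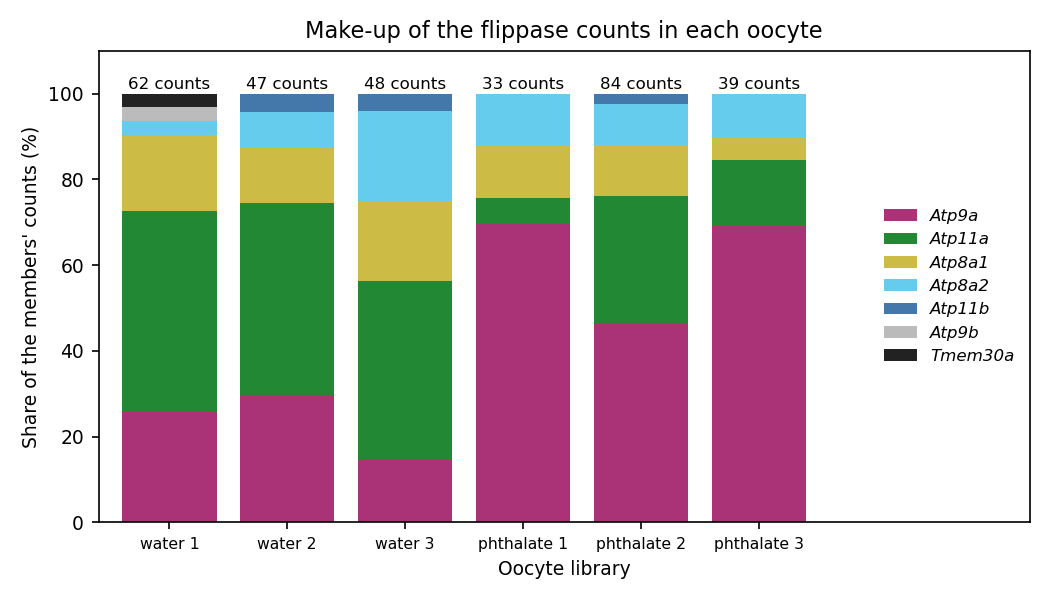
Share of each gene in the summed counts of the 9 flippase genes, 1 bar per oocyte library, with the number of counts above it. Atp9a takes 14.6% to 29.8% of the bar in water oocytes and 46.4% to 69.7% in phthalate oocytes.

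Without Atp9a, the 8 other genes summed to 46, 33 and 41 counts after water and to 10, 45 and 12 after phthalate. Phthalate oocytes 1 and 3 (39.6 and 43.6 CPM) were below all water oocytes (110 to 171 CPM), and phthalate oocyte 2 (153 CPM) was among them. The log2 ratio of the sums, 120 and 67 counts, was -0.77 (95% interval -1.22 to -0.33). Leaving out phthalate oocyte 2 gave -1.71, while leaving out phthalate oocyte 1 gave -0.45 and leaving out phthalate oocyte 3 gave -0.51. Atp11a held the larger part of the difference. The 7 genes other than Atp9a and Atp11a had 50 and 34 counts, a log2 ratio of -0.49 (-1.16 to 0.17) with an interval that includes 0. All 9 genes together had 157 counts in water and 156 in phthalate, a log2 ratio of 0.06 (-0.27 to 0.39).

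Other genes of the P4-ATPase family had few counts as well. Of 6 further catalytic genes 4 had a count and 0 passed the filter. Atp10b, of a class known for glucosylceramide and phosphatidylcholine, led with 3, 14 and 8 counts after water and 6, 12 and 6 after phthalate. Atp10a had 0, 4 and 2 against 4, 2 and 0. Atp8b5 had 2 counts, in water oocyte 3, and Atp10d 2 counts, in phthalate oocyte 1. The 6 genes summed to 33 and 32 counts, a log2 ratio of 0.03 (-0.72 to 0.77). The interval includes 0.

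Genes of neighbouring steps in lipid transport, of lipid synthesis and endosome recycling, and of other P-type ATPases were read from 5 further lists. Of their 26 genes passing the filter, 0 were past 2-fold, against 2.8% of all genes, and nothing is read from this 0. Below the filter, Pemt, Etnk1, Pcyt2 and Atp2b4 were past 2-fold, on few counts. The median log2 ratio over all 4644 genes was 0.0074. Scramblases let phospholipid move both ways and so undo the work of flippases. Of 13 such genes 5 passed the filter, 4 with a ratio above 0 and 1 below, with a median log2 ratio of 0.36. That median was 0.059 when phthalate oocyte 3 was left out and 0.12 when water oocyte 3 was. With no filter on low counts it was 0.087, but there a sum of 0 entered as 3 counts. Xkr4, Xkr8 and Plscr3, with 0 counts in water and 3 in phthalate, were thereby scored as near equal. The autophagy protein genes Atg9a (49 and 60 counts, log2 ratio 0.36, interval -0.21 to 0.94) and Vmp1 (52 and 32 counts, -0.63, -1.31 to 0.03) are examples in each direction. For Atg9a the water oocytes (59.4, 53.2 and 59.9 CPM) were all below the phthalate oocytes (71.4, 64.4 and 83.7 CPM). It was the only gene without overlap among the 26 of the 5 lists that passed the filter, against 10% of all genes. Tmem63b had 65 and 64 counts, and Tmem41b 44 and 55. Ano6, the calcium-gated scramblase of the plasma membrane, had 23 and 31 counts, a log2 ratio of 0.50 (-0.32 to 1.35).

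ABC transporters that move lipid outward had 3 of 7 genes past the filter, with a median of -0.10. That median was 0.11 when water oocyte 1 was left out and 0.17 when phthalate oocyte 1 was. Leaving out phthalate oocyte 3 gave -0.47, so the sign is not set. Abcg1 had 96 and 109 counts, Abcb1b 50 and 31, and Abcb4 36 and 32. Below the filter, Abcc1 had 19 and 33 counts.

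Enzymes that make phosphatidylserine and phosphatidylethanolamine, the lipids that flippases move, had 2 of 10 genes past the filter. Ptdss1, a phosphatidylserine synthase, had 41 and 29 counts (log2 ratio -0.43, interval -1.17 to 0.29). Cept1, which makes phosphatidylethanolamine and phosphatidylcholine, had 43 and 68 counts (0.73, 0.16 to 1.32). Its counts per oocyte, 6, 26 and 11 against 24, 14 and 30, overlapped between the groups. Below the filter, Pisd, the gene of the decarboxylase that turns phosphatidylserine into phosphatidylethanolamine, had 10, 6 and 4 counts against 6, 2 and 6. Also below it, Etnk1, an ethanolamine kinase, had 24 and 9 counts (log2 ratio -1.34, interval -2.63 to -0.19). Pemt, which methylates phosphatidylethanolamine, had 14 and 2 (-2.74, -5.92 to -0.61). On read pairs the intervals of Etnk1 (-3.05 to 0.41) and Pemt (-8.23 to 0.22) included 0. Pcyt2 had 6 and 13 counts (1.19, -0.31 to 2.87) and Ptdss2 20 and 10 (-0.93, -2.19 to 0.23).

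Genes of endosome recycling, some of them of partners of ATP9A, numbered 19, of which 16 were in the count table. Of the 16, 9 passed the filter, 3 with a ratio above 0 and 6 below. Their median log2 ratio was -0.07, which ran from -0.14 to 0.10 with 1 library left out. Rab7, the late endosome GTPase, had 297 and 270 counts (log2 ratio -0.07, interval -0.31 to 0.18). The retromer subunits, which sort cargo back from endosomes, did not share a direction: Vps26a had 105 and 115 counts, Vps29 64 and 90 (0.56, 0.08 to 1.05) and Vps35 45 and 23 (-0.90, -1.69 to -0.14). Per oocyte, Vps29 had 24, 24 and 16 counts against 12, 44 and 34, and Vps35 had 5, 18 and 22 against 7, 12 and 4, so the groups overlapped for both. Mon2 and Dop1b, whose products form a complex with ATP9A, had 62 and 45 counts (-0.39, -0.98 to 0.19) and 45 and 36 counts (-0.25, -0.92 to 0.41). Snx6, a sorting nexin, had 111 and 105 counts, and Dop1a 86 and 76. Snx3, the sorting nexin of that complex, fell short of the filter with 8, 9 and 2 against 14, 6 and 9 counts.

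P-type ATPases of other classes move ions or other substrates. Of 21 genes 14 had a count and 7 passed the filter, 4 with a ratio above 0 and 3 below, and the median log2 ratio was 0.08 (0.024 to 0.24 with 1 library left out, and 0.27 with no filter). The calcium pump gene Atp2a2 had 220 and 181 counts, the secretory pathway pump gene Atp2c2 125 and 126, and Atp2b1, a plasma membrane calcium pump, 93 and 128 (log2 ratio 0.53, interval 0.14 to 0.93). The counts of Atp2b1 per oocyte, 26, 38 and 29 against 47, 49 and 32, overlapped between the groups. Atp2c1, another secretory pathway pump gene, had 89 and 81 counts. Summed over the 21 genes the log2 ratio was 0.10 (-0.06 to 0.25). Atp2b4, below the filter, had 4 and 8 counts (log2 ratio 1.07, interval -0.83 to 3.25).

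**Figure D5:**
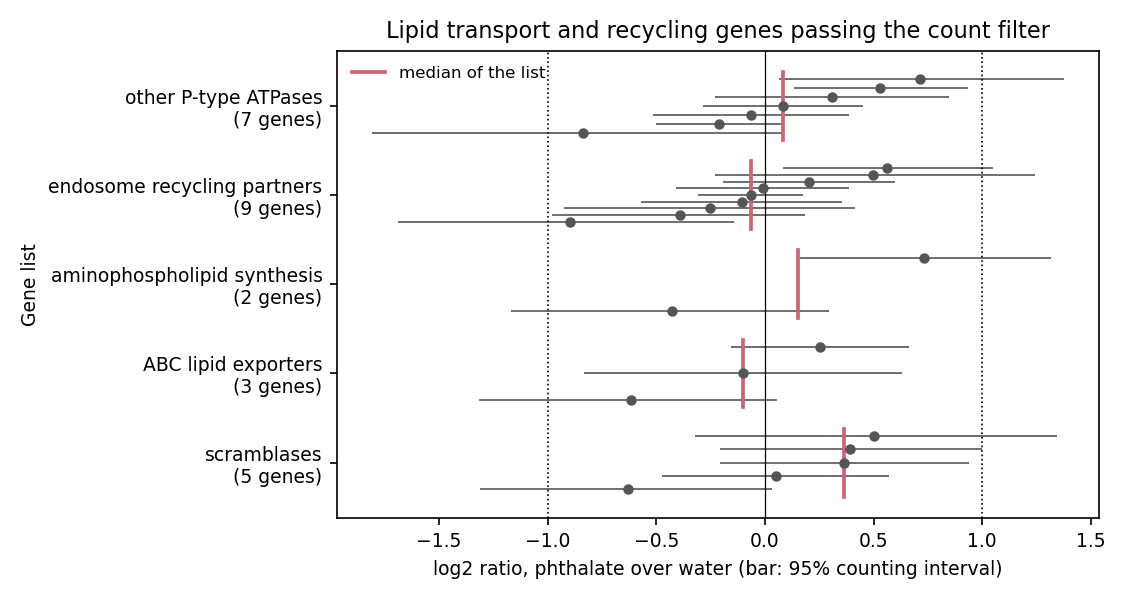
Log2 ratio of phthalate over water for the genes that passed the filter in 5 lists, with 95% counting intervals; each red line is the median of a list and dotted lines mark 2-fold. No point lies past 2-fold, and the medians run from -0.10 for ABC lipid exporters to 0.36 for scramblases.

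The genes whose pattern over the 6 libraries was most like that of Atp9a were found by Pearson's r of log2 CPM against the 2783 other genes of mean count 20 or more. They were Abhd6 (r = 0.992), a monoacylglycerol lipase, Eef1d (0.986), a translation elongation factor subunit, Mrto4 (0.974), a ribosome assembly factor, Cenpx (0.953), a centromere protein, and 2310033P09Rik (0.95). Abhd6 had 24, 21 and 16 counts after water and 28, 40 and 32 after phthalate, a log2 ratio of 0.78 (0.31 to 1.27). Eef1d, at higher counts, had a smaller ratio (0.50, 0.31 to 0.69). In both genes water oocyte 3 was the lowest library and phthalate oocyte 2 the highest in counts, as for Atp9a. An r over 6 libraries that fall into 2 groups is a description: 23 genes had an r above 0.9, and the points share the difference between the groups for which Atp9a was picked.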

How the data were processed

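The deposited table holds the authors' raw counts for each gene symbol, with 92 ERCC spike-in rows that stayed out of all totals. The submitters' processing notes name cutadapt, Trimmomatic, HISAT2, DESeq2 and the build mm10 (GRCm38). The counting tool, annotation, use of strand and handling of molecular identifiers are not given in the sources used here. Libraries were Smart-seq3 (oligo(dT) priming, template switching, PCR), read as pairs of 150 bp, per the labels' protocols. Reads copied by PCR, and the 2 mates of a pair, come from 1 molecule, so the intervals are too narrow.

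Genes passed filterByExpr of edgeR 4.0.16 at a minimum count of 10 and a minimum total of 15. Counts were summed per group and divided by the sum of the passing genes' library totals scaled by TMM factors. Where a group had no counts of a gene, its sum entered the log2 ratio as 3 counts. A gene with fewer counts than that, all from a single group, is thereby scored higher in the other group. Otherwise the log2 ratio has no pseudocount, and its 95% interval is the Clopper-Pearson interval of one group's share in both sums. The ratio was tested on simulated data. Those counts were independent Poisson draws without read pairs or extra spread, so they do not test the intervals for these libraries. CPM used the totals of all genes. Coordinates are those of RefSeq GRCm38.p6, which holds all 9 symbols. Exon lengths came from GENCODE M21 for 24366 of 25239 genes. Named genes are the 9 members, the 4 genes of highest count in each list, genes past 2-fold and the 5 likest to Atp9a; a few further list genes were added after their values were seen. Some genes of the lists are not reported here. Members and lists were chosen with earlier results of these data known. Alternatives were DESeq2 1.42.0 size factors, library totals alone, read pairs, totals without Rn45s, means of CPM, no filter and each library left out.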

Additional observations from a re-analysis of the deposited data

How the results depend on the processing

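The log2 ratio of Atp9a ranged from 1.06 to 1.59 with 1 library left out and stayed within its counting interval under all 12 alternatives. Its groups do not overlap, so the sign could not change. The log2 ratio of the 8 other genes' summed counts was -1.71 when phthalate oocyte 2 was left out and -0.45 when phthalate oocyte 1 was, the ends of its range, and was below 0 under all 12 alternatives. The number of genes past 2-fold ranged from 1 to 2 with 1 library left out and was 1 with no filter on low counts, where the log2 ratio of Atp11a was -0.998, just short of the line, against -1.01. For single genes and the summed counts this setting was chosen after seeing the data. With no filter, 1337 of 12804 genes were scored at least 2-fold higher and 1212 at least 2-fold lower, against 53 and 77 of 4644. Of the 12804, 2040 had 1 to 3 counts in all. Because a sum of 0 entered as 3, a gene with 1 count in all is scored higher in the group without it. The number of genes without overlap between groups ranged from 1 to 2 with 1 library left out. It was 2 without phthalate oocyte 2, where 18.5% of all genes did not overlap.

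Without a phthalate or water oocyte, Atp8a1 ranged from -1.38 to -0.28 and Atp8a2 from -0.30 to 0.91 on the log2 scale. The list medians moved with the library left out; of the 5 lists, scramblases (0.059 to 0.48) and other P-type ATPases (0.024 to 0.27) had a median above 0 in all 12 alternatives. The medians of ABC lipid exporters (-0.47 to 0.18), aminophospholipid synthesis (-0.42 to 0.66) and endosome recycling genes (-0.14 to 0.10) took both signs. The cause was not tested. No paired analysis was possible because the labels name no animal or culture that would pair oocytes, and no test was run. Depth limits what can be shown: 7 of the 9 genes did not pass the filter.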
